A study of Mus musculus with 44 samples.

Results

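Genes grouped under the name of the meninges and vessel walls were followed through RNA bound to tagged ribosomes from mouse hippocampus. The name does not settle which cells gave the RNA. The genes are Fn1, Eln, Igfbp7, Igf2, Dcn, Lum, Bgn, Slc6a13, Col4a1 and Col4a2. They are 10 of the 55335 genes in the count table, taken by matching each versioned Ensembl identifier to its symbol in GENCODE for GRCm38, and all 10 were found. The genes were chosen by their measured levels, covariation, left-right differences and exercise differences in these same libraries, so their values in every comparison are described and no test of them is read as support.

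All 20 libraries came from male Emx1-NuTRAP mice, in which Emx1-Cre turns on the NuTRAP cassette that tags ribosomes and nuclei of the same cells. Emx1-Cre is expressed from embryonic development on, so the tag marks a lineage that is mostly excitatory neurons of the hippocampus and not a state of the adult cell. Early-life exercise (ELE) meant a cage with a running wheel between postnatal days 21 and 41, sedentary mice had cages without one, and tissue was taken the day after the wheels were removed. In simultaneous isolation (SIT) both hippocampi of a mouse went into one homogenate that gave nuclei and then RNA, with 4 ELE and 4 sedentary mice, whereas in separate isolation 1 hippocampus gave the RNA and the opposite one the nuclei. The separate libraries comprised 3 mice in each of left ELE, left sedentary, right ELE and right sedentary, so left and right libraries are from different mice, and n counts mice throughout.

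Fibronectin (Fn1) is an adhesion protein of the extracellular matrix that cells grip through integrins, and elastin (Eln) gives arteries their recoil. Type IV collagen, made of the chains encoded by Col4a1 and Col4a2, forms the network of the basement membrane around every brain vessel. Decorin (Dcn), lumican (Lum) and biglycan (Bgn) are small leucine-rich proteoglycans that bind collagen fibres, Igf2 is a growth factor made in the brain chiefly by the leptomeninges and choroid plexus, Igfbp7 is a secreted binding protein typical of endothelium, and Slc6a13 is a GABA and taurine transporter (GAT2) of the leptomeninges. Meningeal, vascular and choroid plexus cells lie largely outside the Emx1 lineage. In RNA of bulk tissue fewer cells of a type and less RNA per cell cannot be told apart.

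Promoter windows of 250 bases before to 50 bases after each annotated start were available from RefSeq for GRCm38.p6 for 6 of the 10 genes, 11 windows in all. The windows of Col4a1 and Col4a2 are shown because the genes lie head to head on chromosome 8, those of Igfbp7 and Slc6a13 as genes whose exercised and sedentary right-hemisphere groups shared no value. For Slc6a13 the first of 3 windows at alternative starts is printed, and the 4 windows of Igf2, whose groups shared none either, and that of Bgn are not. Col4a1 lies at chr8:11198423-11312826 on the minus strand and Col4a2 at chr8:11312805-11449287 on the plus strand. Their annotated starts are 21 bases apart and the windows share 78 bases. In the sequences, written 5′ to 3′ on the strand of the gene, capitals mark GC boxes (GGGCGG or CCGCCC) and CCAAT boxes (CCAAT or ATTGG).
Col4a1, chr8:11312777-11313076, minus strand: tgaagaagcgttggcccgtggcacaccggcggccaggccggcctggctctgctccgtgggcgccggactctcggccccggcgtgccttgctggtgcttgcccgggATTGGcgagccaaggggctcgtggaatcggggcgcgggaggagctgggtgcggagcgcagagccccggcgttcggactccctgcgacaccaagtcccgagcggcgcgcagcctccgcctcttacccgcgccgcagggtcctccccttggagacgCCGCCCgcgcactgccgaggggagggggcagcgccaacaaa
Col4a2, chr8:11312555-11312854, plus strand: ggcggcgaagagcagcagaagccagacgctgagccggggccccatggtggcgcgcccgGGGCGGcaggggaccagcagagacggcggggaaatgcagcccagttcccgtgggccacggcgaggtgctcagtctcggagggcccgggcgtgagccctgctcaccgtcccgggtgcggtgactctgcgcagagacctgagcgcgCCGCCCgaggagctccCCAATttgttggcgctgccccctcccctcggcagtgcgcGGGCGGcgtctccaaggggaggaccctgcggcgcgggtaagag
Igfbp7, chr5:77407996-77408295, minus strand: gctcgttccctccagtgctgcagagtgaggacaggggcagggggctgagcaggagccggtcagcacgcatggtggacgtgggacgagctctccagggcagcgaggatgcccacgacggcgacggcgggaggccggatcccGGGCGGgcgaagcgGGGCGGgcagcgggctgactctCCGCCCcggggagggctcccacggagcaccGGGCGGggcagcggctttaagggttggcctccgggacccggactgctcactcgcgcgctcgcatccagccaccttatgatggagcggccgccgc
Slc6a13, chr6:121300038-121300337, plus strand: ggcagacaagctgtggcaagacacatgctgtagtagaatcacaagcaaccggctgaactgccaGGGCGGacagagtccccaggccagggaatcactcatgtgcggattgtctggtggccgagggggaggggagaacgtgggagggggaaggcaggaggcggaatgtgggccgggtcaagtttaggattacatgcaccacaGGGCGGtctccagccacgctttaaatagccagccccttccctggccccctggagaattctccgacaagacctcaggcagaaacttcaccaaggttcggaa

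The Igfbp7 window held 4 GC boxes and no CCAAT box, the Col4a2 window 3 GC boxes and 1 CCAAT box, the Col4a1 window 1 of each and the Slc6a13 window 2 GC boxes. GC content was 73.3% at Igfbp7, 74% at Col4a1, 73.7% at Col4a2 and 59% at Slc6a13, against a median of 52.7% over 32851 promoters. Over those promoters 35.7% held a GC box, 37.4% a CCAAT box and 13.6% the letters TATAAA or TTTATA, and of the 11 windows of the genes described here 7, 5 and 0 did. These matches are letters in a window and no evidence of a bound factor.

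The libraries held 45895097 to 65767802 counts each. The summed level of 8 excitatory neuron markers was 10250 to 14130 CPM (counts scaled to library size) per library, against 5.64 to 47.7 CPM for 12 endothelial markers and 53.3 to 155.5 CPM for 21 fibroblast markers, so excitatory neuron markers had the highest sum. Other cells were present too, with astrocyte sums of 1665 to 5332 CPM, oligodendrocyte sums of 2160 to 4687 CPM and choroid plexus sums of 19.04 to 1330 CPM. Mitochondrial genes took 9.64% and 8.64% of counts in 2 sedentary SIT libraries (NT7.2.4 and, for the lower share, NT7.2.3) and at most 0.523% in the others. The same 2 libraries had microglial marker sums of 261.1 CPM (NT7.2.3) and 267.1 CPM, against at most 16.3 CPM in the other 18, red cell sums of 197.9 and 569.9 CPM against 2.39 to 30.7 CPM, mural cell sums of 72.7 CPM each against 16.0 to 49.1 CPM, and fibroblast sums of 155.5 and 154.5 CPM against 53.3 to 84.6 CPM. The part of those cell types in the levels of the 10 genes in these libraries was not tested. These 2 libraries and the ELE library of mouse NT6.304 are the 3 that the SIT comparison in the deposited gene list left out, as worked out from which libraries account for the genes the list holds. The SIT comparison here therefore used 3 ELE and 2 sedentary libraries, and values with all 8 are given beside it.

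Per kilobase of exon, the median level over the 20 libraries was highest for Dcn at 5.45 CPM per kb, followed by Igfbp7 at 2.94, Col4a2 at 2.42, Bgn at 1.42, Col4a1 at 1.12, Fn1 at 0.526, Eln at 0.442, Lum at 0.175, Igf2 at 0.118 and Slc6a13 at 0.0347 CPM per kb. The ranges of neighbours in this order overlapped over the libraries, so the order of medians is descriptive. All levels that follow are CPM and are compared within a gene.

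**Figure D1:**
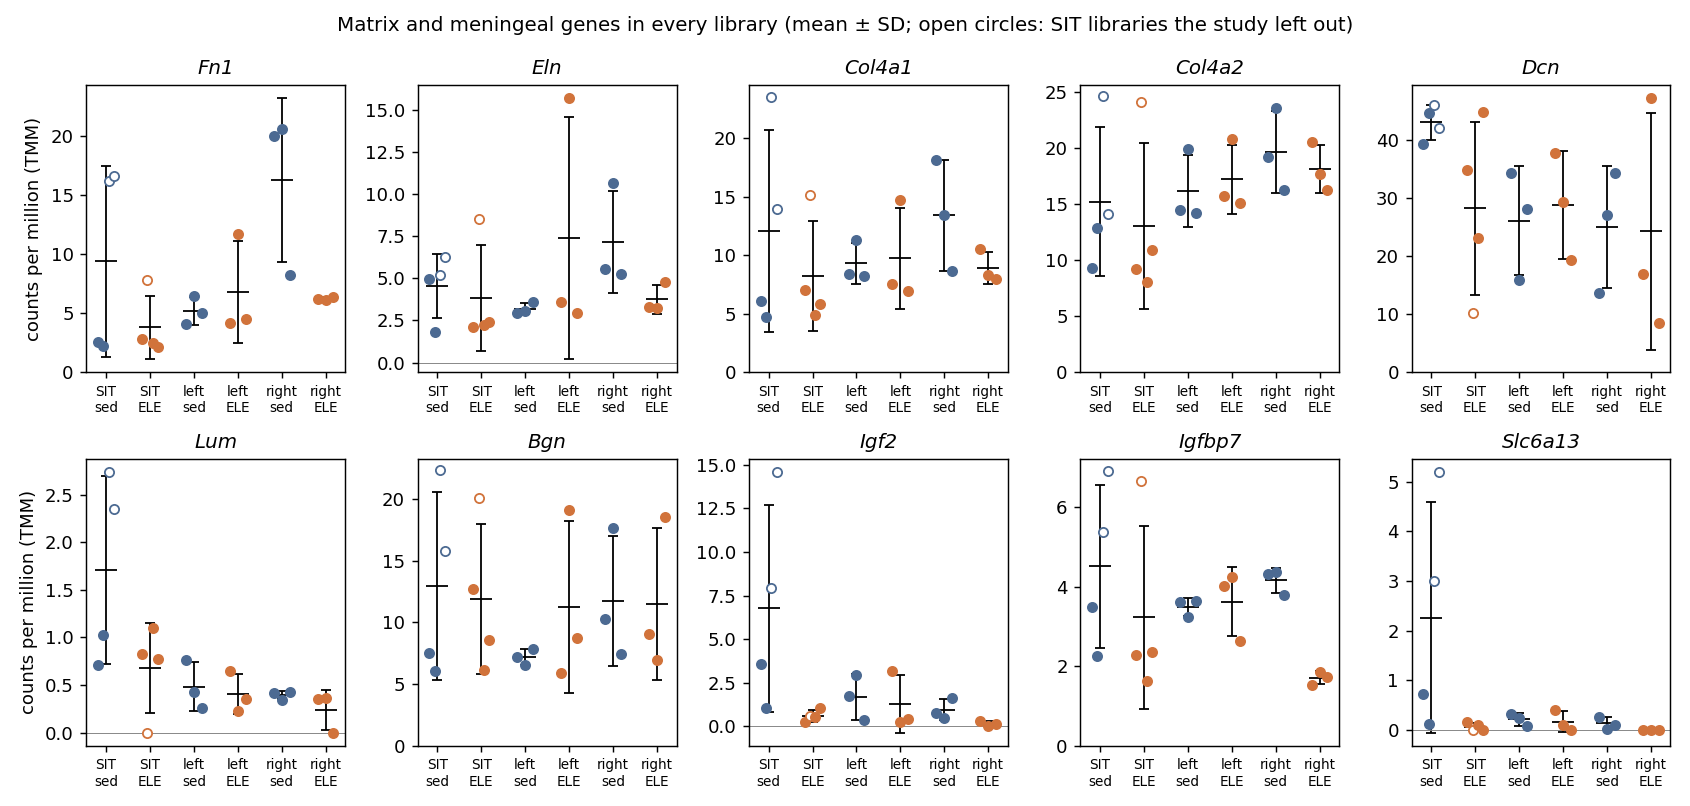
Level of each of the 10 genes (CPM, linear axes) by group, 1 point per mouse, blue for sedentary and orange for ELE, with the group mean ± SD as bars and the 3 left-out SIT libraries as open circles. Fn1 sat at 6.14 to 6.34 CPM in the 3 right ELE libraries and at 8.24 to 20.6 CPM in the 3 right sedentary ones, and the 2 sedentary SIT libraries with high mitochondrial shares stood at 16.2 and 16.6 CPM.

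Fn1 was lower in exercised than in sedentary right hippocampus and its left groups overlapped. On the right it measured 6.15, 6.14 and 6.34 CPM in the ELE mice and 19.96, 20.6 and 8.24 CPM in the sedentary mice. The groups did not overlap, and the ELE values lay closer together than those of any other group of separate libraries. The fitted difference was -1.39 ± 0.30 on the log2 scale (SE, n = 3 against 3), a 2.61-fold lower level with ELE. On the left it measured 4.16, 11.7 and 4.46 CPM in ELE and 4.06, 6.45 and 5.03 CPM in sedentary mice, and the ranges overlapped (0.39 ± 0.40, and -0.27 ± 0.23 without the ELE mouse TG9.1.4). In SIT libraries the compared ELE mice had 2.78, 2.50 and 2.12 CPM and the sedentary mice 2.56 and 2.24 CPM, which also overlapped (0.04 ± 0.33). The libraries left out stood far above these, at 7.77 CPM in the ELE mouse and at 16.2 and 16.6 CPM in the sedentary mice, and with all 8 the SIT difference became -1.29 ± 0.69. Of the first parts of the mouse numbers only NT6 holds both ELE and sedentary SIT mice, so a block on that part compares those 4 mice alone, 2 against 2, the left-out NT6.304 among them, and it gave 1.15 ± 0.42. No direction is given for Fn1 in SIT.

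Eln followed the same order of right-hemisphere groups. The right ELE libraries had 3.27, 3.22 and 4.76 CPM and the right sedentary ones 5.55, 10.7 and 5.22 CPM, with no overlap and a difference of -0.93 ± 0.30. On the left the ELE libraries had 3.59, 15.7 and 2.92 CPM and the sedentary ones 2.93, 3.07 and 3.57 CPM. The left ELE mouse TG9.1.4 had the highest elastin level of the 20 libraries, and the left difference of 1.21 ± 0.58 came with overlapping groups and fell to 0.03 ± 0.22 without that mouse. Eln was called there without TG7.3.2 (1.54 ± 0.56) or TG9.2.2 (1.59 ± 0.52), which leave TG9.1.4 in, and with no filter on low counts (1.21 ± 0.45). In SIT the compared ELE libraries had 2.13, 2.22 and 2.39 CPM and the sedentary ones 4.96 and 1.80 CPM, with overlap (-0.59 ± 0.42, and -0.23 ± 0.52 with all 8). The sign turned without the sedentary mouse NT6.305 (0.32 ± 0.49) and with the block, within the 4 NT6 mice (0.68 ± 0.62), and without NT6.306 the gene was called at -1.14 ± 0.39, so no direction is given for Eln in SIT.

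The collagen chains are given side by side, and the difference between them was not tested. Col4a1 measured 10.5, 8.32 and 7.99 CPM in right ELE and 18.2, 13.4 and 8.65 CPM in right sedentary libraries, with overlap and a difference of -0.58 ± 0.25. Col4a2 measured 20.5, 17.7 and 16.3 CPM against 19.2, 23.5 and 16.3 CPM, a difference of -0.11 ± 0.16. That difference was smaller than its standard error. On the left both chains differed by under 0.1 on the log2 scale, at 0.06 ± 0.29 for Col4a1 and 0.08 ± 0.18 for Col4a2. In SIT the differences were 0.12 ± 0.25 for Col4a1 (-0.54 ± 0.51 with all 8, and 1.05 ± 0.38 with the block, within the 4 NT6 mice) and -0.24 ± 0.22 for Col4a2 (-0.21 ± 0.38 with all 8, and 0.61 ± 0.43 with the block), so neither is given a direction there.

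Igfbp7 was also lower with ELE on the right. The right ELE mice had 1.54, 1.86 and 1.72 CPM and the right sedentary mice 4.32, 4.36 and 3.79 CPM. The gap between the groups was wider than the spread within either, and the difference was -1.28 ± 0.23, or 2.43-fold lower with ELE. Left ELE libraries, at 4.02, 4.23 and 2.62 CPM, overlapped left sedentary ones, at 3.61, 3.23 and 3.64 CPM (0.05 ± 0.23). In SIT libraries the compared ELE mice had 2.27, 1.62 and 2.37 CPM and the sedentary mice 3.50 and 2.26 CPM, again with overlap (-0.47 ± 0.36, and -0.47 ± 0.48 with all 8). With the block, within the 4 NT6 mice, the value was 0.65, of opposite sign, so no direction is given for Igfbp7 in SIT.

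Igf2 was lower with ELE in both the SIT and the right-hemisphere comparison. In SIT the compared ELE libraries had 0.220, 0.551 and 1.02 CPM and the sedentary ones 3.56 and 1.02 CPM, with group ranges that just failed to meet, as did those of 22.1% of all genes (-1.94 ± 0.71). The left-out libraries had 0.583 CPM in the ELE mouse and 7.91 and 14.6 CPM in the sedentary mice, the highest Igf2 values of the series, and with all 8 the difference was -3.50 ± 0.74. On the right the ELE mice had 0.279, 0 and 0.106 CPM and the sedentary mice 0.764, 0.444 and 1.63 CPM (-2.90 ± 1.02). The gene passed the low-count filter of the right-hemisphere fit through the sedentary libraries, so its call there is not read. On the left the levels ran from 0.226 to 3.18 CPM in ELE and from 0.364 to 2.96 CPM in sedentary mice, and the groups overlapped (-0.39 ± 0.99, and -2.37 ± 0.84, called, without the ELE mouse TG7.3.2). The SIT value rested on single mice: it was -0.78 ± 1.03 without the sedentary mouse NT6.305, and the call was also lost without the ELE mouse NT6.303 or TG7.4.1.

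Choroid plexus markers moved with Igf2. The summed level of 11 choroid plexus genes was 19.04 to 47.1 CPM in right ELE libraries and 38.1, 89.9 and 1219 CPM in right sedentary ones, and the sedentary mouse with 1219 CPM (TG9.2.3) had the highest Igf2 of the right-hemisphere libraries. Without that mouse the right difference of Igf2 was -2.24 ± 1.28. In SIT the same sum was 136.9 to 596.3 CPM in the 3 compared ELE libraries and 612.1 and 696.3 CPM in the sedentary ones, and the sum of 5 red cell genes was 3.88 to 12.4 CPM against 26.7 and 30.7 CPM. Across all 20 libraries Igf2 and the choroid plexus sum had a Pearson correlation of 0.77, and of 0.87 without the 3 left-out SIT libraries. How much of the Igf2 difference goes with choroid plexus or blood in the dissection was not tested.

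Slc6a13 was close to the detection limit in most libraries. No count was found in the 3 right ELE libraries and 19 counts in the 3 right sedentary ones, at 0.262, 0.0202 and 0.108 CPM, so the groups did not overlap. Against the floor of 3 counts over the group, its level was at least 7.21-fold lower with ELE, a bound that covers counting error only. Of the 19 counts 12 were from TG7.3.3, without which the bound was 3.81-fold, and TG9.1.1 held a single count, on which the lack of overlap rested. The gene was too low to enter the fitted comparison. In the left hippocampus it reached 0.399 CPM at most. The highest levels of the series were 3.01 and 5.20 CPM, in the sedentary SIT libraries NT7.2.3 and NT7.2.4, in which microglial, red cell, mural and fibroblast sums were also the highest.

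The proteoglycans overlapped between right-hemisphere groups. Dcn measured 16.9, 47.3 and 8.47 CPM in right ELE and 13.6, 27.2 and 34.2 CPM in right sedentary libraries, a wide spread with overlap (-0.04 ± 0.52, and -0.98 ± 0.40, called, without the ELE mouse TG9.1.3). Bgn measured 9.04, 6.92 and 18.5 CPM against 10.2, 17.6 and 7.42 CPM (-0.03 ± 0.38). Lum measured 0.359, 0.367 and 0 CPM against 0.415, 0.343 and 0.431 CPM (-0.70 ± 1.01). With all mice the standard error exceeded the difference for each of the 3. In SIT and left libraries the ranges of Dcn, Lum and Bgn also overlapped between ELE and sedentary mice. The SIT differences were -0.29 ± 0.23 for Dcn, 0.05 ± 0.60 for Lum and 0.43 ± 0.30 for Bgn, and with all 8 libraries -0.60 ± 0.34, -1.32 ± 0.90 and -0.10 ± 0.45. For Bgn the 4 NT6 mice gave 1.29 ± 0.30 with the block, called higher with ELE. Without TG7.4.1 Bgn was called in SIT at 0.65 ± 0.27, and without TG7.4.2 Dcn at -0.54 ± 0.19. The left differences were 0.14 ± 0.30 for Dcn, -0.24 ± 0.63 for Lum and 0.64 ± 0.38 for Bgn, and Bgn was called without TG7.3.2 (0.95 ± 0.29) and stood at 0.02 ± 0.20 without TG9.1.4.

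Counted together against the background, a gene was called where the unadjusted p of edgeR's quasi-likelihood test was under 0.05 and the fold over 1.31, the type of cutoff the study used. In the right hippocampus 5 of the 9 members tested were called, all lower with ELE (Fn1, Eln, Igfbp7, Igf2 and Col4a1), where 1.97% of 17570 genes were called, 1.23% lower and 0.746% higher. Groups did not overlap for 4 of the 9, against 7.69% of all genes. Igf2 is in both counts. On the right it passed the low-count filter through the sedentary libraries, where it was higher, so its call is not read. In SIT 1 of 9 was called, Igf2, against 3.65% of genes (2.11% lower and 1.54% higher), and in the left hippocampus 0 of 10 against 2.07% (0.963% lower and 1.1% higher), with all 10 ranges overlapping where 10.8% of genes had none. Because the genes were chosen with these contrasts known, nothing is read from the counts. The median difference of the members was -0.70 on the right, -0.24 in SIT and 0.07 on the left, while the median over all genes was within 0.01 of 0 in each. No gene that passed the low-count filter had an adjusted p under 0.05 in these 3 comparisons (edgeR's quasi-likelihood test, Benjamini-Hochberg over all genes tested), with 488 genes at an unadjusted p under 0.05 on the right, 1000 in SIT and 699 on the left. With no filter on low counts the same test gave 27, 105 and 0 genes at an adjusted p under 0.05 on the right, in SIT and on the left. DESeq2 gave 14, 14 and 0 genes at an adjusted p under 0.05 on the right, in SIT and on the left.

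**Figure D2:**
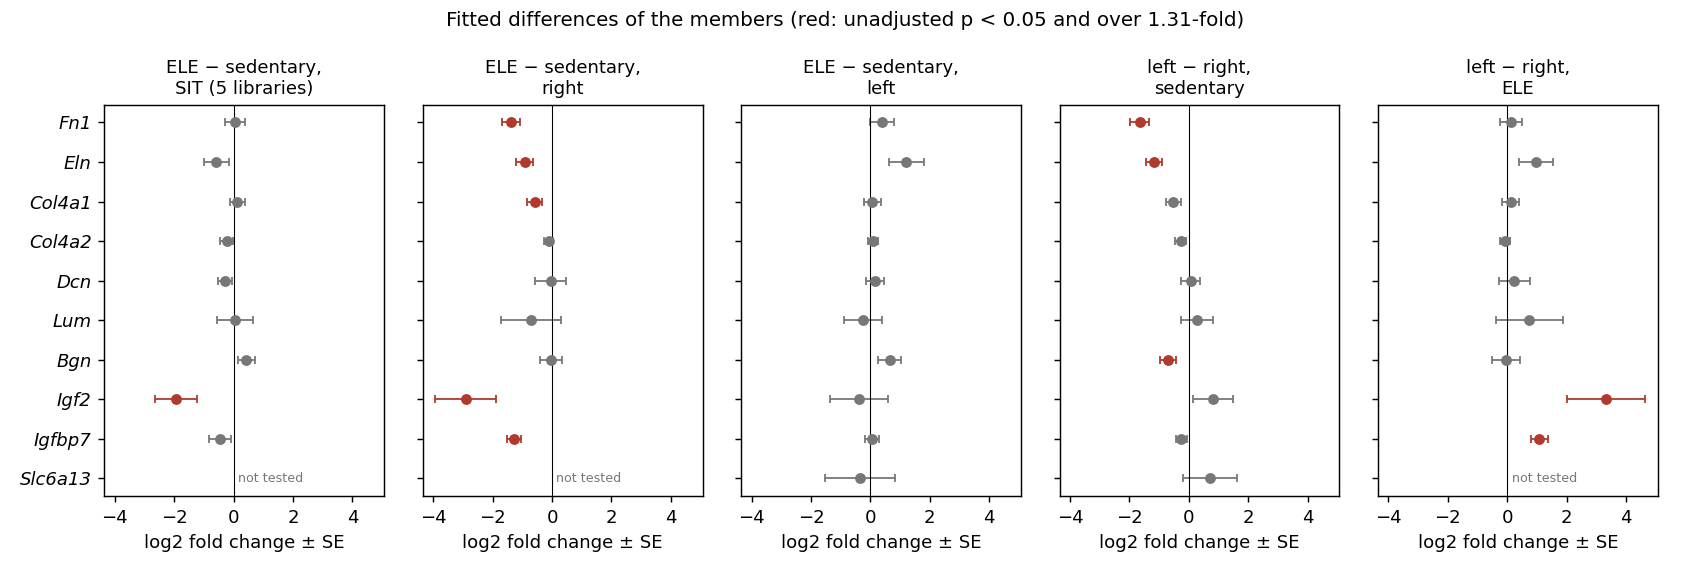
Fitted log2 fold changes with standard errors for each gene, in panels for ELE minus sedentary in SIT, right and left libraries and for left minus right in sedentary and in ELE mice, with called genes in red. On the right Fn1 at -1.39 and Igfbp7 at -1.28 were called, and on the left their values were 0.39 (-0.27 without the mouse TG9.1.4) and 0.05.

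The calls on the right rested in part on single mice. Fn1 and Igfbp7 were called in each of the 6 comparisons that left out 1 mouse, with differences of -1.71 to -1.18 for Fn1 and -1.35 to -1.21 for Igfbp7. Without the sedentary mouse TG9.1.1 the count fell from 5 to 3, since Eln (-0.53 ± 0.25) and Col4a1 (-0.59 ± 0.27) were no longer called. Col4a1 also lost its call without TG9.1.3, TG9.2.1 or TG7.3.3, in 4 of the 6 comparisons in all, and Igf2 lost its call without TG9.2.3 (-2.24 ± 1.28). Col4a1 was smallest, at -0.30 ± 0.23, without the sedentary mouse TG7.3.3, which had the highest endothelial marker sum of the series (47.7 CPM, against 7.15 to 9.71 CPM in the other right-hemisphere libraries). Fn1 stood at 19.96 CPM in TG7.3.3 and at 20.6 CPM in the sedentary mouse TG9.1.1, whose endothelial sum was 7.38 CPM. The part of endothelial cells in these levels was not tested.

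Left and right hippocampus were compared within sedentary and within exercised mice, with the same libraries as above. In sedentary mice 3 of 10 genes were called, all lower on the left (1.68% of all genes were called, 0.911% lower and 0.77% higher): Fn1 by -1.65 ± 0.32, Eln by -1.16 ± 0.27 and Bgn by -0.71 ± 0.27. Bgn was -0.29 ± 0.18 without the right sedentary mouse TG9.1.1, lost its call in 3 of the 6 comparisons that left out 1 mouse, and lost it with the block on the first part of the mouse number. Eln was -0.75 ± 0.20 without TG9.1.1, Col4a1 and Col4a2 were called lower on the left without TG9.1.2 or TG9.2.3, and Igf2 was called higher without TG9.2.4. Left and right values did not overlap for Fn1, Eln and Igfbp7 (7.7% of all genes). In ELE mice 2 of 9 were called, both higher on the left (1.36% of all genes, 0.853% higher and 0.509% lower): Igfbp7 by 1.08 ± 0.28 and Igf2 by 3.33 ± 1.31. The Igf2 value rested on the left ELE mouse TG7.3.2, with 3.18 CPM against 0.226 and 0.420 CPM in the other left ELE mice, and was 1.33 ± 1.45 without it. Igf2 also lost its call without TG9.1.3 or TG9.2.1. In ELE mice it passed the low-count filter through the left libraries, where it was higher, so that call is not read. Fn1 was called in the opposite direction, lower on the left at -0.53 ± 0.20, without TG9.1.4, Dcn was called at 1.18 ± 0.37 without TG9.1.3, and Eln at 1.35 ± 0.53 without TG9.2.2. Igfbp7 alone had no overlap there (6.8% of all genes).

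Where the exercise difference on the right was subtracted from that on the left, 4 of 10 genes were called, all above 0 (2.2% of all genes, 1.35% above and 0.856% below 0), at 1.77 ± 0.55 for Fn1, 2.14 ± 0.72 for Eln and 1.33 ± 0.30 for Igfbp7. Without the left ELE mouse TG9.1.4 the value was 1.12 ± 0.41 for Fn1 and 0.95 ± 0.40 for Eln, and all 3 genes were called in each of the 12 comparisons that left out 1 mouse. The fourth was Slc6a13, for which no fold is given because the right ELE libraries held no count, and which lost its call in 9 of those 12. Col4a1 was called without TG9.2.3 (0.88 ± 0.40) and Igf2 without TG9.1.4 (3.02 ± 1.40). With the hemispheres combined 1 of 10 was called (1.97% of all genes, 1.2% lower and 0.771% higher), Igfbp7 at -0.61 ± 0.23, a call lost without TG9.1.3, TG9.2.1 or TG7.3.1 (right ELE mice). The count was 4 without the left ELE mouse TG9.1.4, all lower, with Fn1 at -0.89 ± 0.25, Eln at -0.50 ± 0.23 and Col4a1 at -0.49 ± 0.17 beside Igfbp7, and 3 without TG7.3.2, with Igf2 (-2.65 ± 0.70) and Slc6a13 beside Igfbp7. The members' median was 1.003 for the difference between hemispheres and -0.37 for the combined comparison, and these values restate the levels given above.

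Genes of the same structures outside the 10 are given beside the 1.97% of all genes called on the right. Of the elastic fibre assembly genes, 1 of 10 tested was called lower with ELE, Fbln5, a fibulin that organises elastic fibres, at -1.20 ± 0.46, and the list's median was -0.21. None of 15 basement membrane genes, 5 further small leucine-rich proteoglycans, 7 fibronectin receptors or 9 genes of the insulin-like growth factor system was called, with medians of -0.24, -0.28, -0.13 and -0.09. On the left, where 2.07% of all genes were called, the fibronectin receptor subunit Itga5 was higher (2.83 ± 0.96), with its highest level of the 20 libraries, 10.1 CPM against a median of 0.605 CPM, in the mouse TG9.1.4, and the basement membrane protein Nid2 lower (-1.32 ± 0.55) with ELE. In SIT, where 3.65% of all genes were called, Mfap2, a microfibril protein, was at -0.87 ± 0.34 and called, and 0 of 16 basement membrane genes were called. The imprinted RNA H19, which neighbours Igf2, had no count in the 3 compared ELE libraries and entered the fit only through the sedentary ones, so its call is not read.

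Marker lists of the cells that make these proteins held genes called lower on the right as well, to be read beside the 1.23% of all genes called lower there, and no test of the lists was run. Of the leptomeningeal and perivascular fibroblast markers 2 of 17 were called lower with ELE, Col1a1 (-1.15 ± 0.43), the main fibrillar collagen chain, and the transporter Slc13a4 (-2.08 ± 0.78), with a list median of -0.59. Of the endothelial markers 4 of 12 were lower, the receptors Kdr, Tek and Tie1 and the tight junction protein Cldn5, between -1.26 and -2.45, with a list median of -1.78, and the highest endothelial sum lay in a single sedentary mouse as given above. Mural cell markers had 1 of 9 lower, the smooth muscle myosin Myh11 (-2.54 ± 1.05), highest in the same sedentary mouse TG7.3.3, choroid plexus markers 8 of 10 with a median of -3.35, and red cell genes 3 of 4 with a median of -0.94. The choroid plexus sums overlapped between the groups, and TG9.2.3 held 1219 CPM against 38.1 and 89.9 CPM in the other sedentary mice. Microglial markers had 1 of 8 lower (Cx3cr1) and a median of 0.29. No marker of excitatory neurons (8), astrocytes (7) or oligodendrocytes (5) was called, with medians of 0.13, 0.02 and -0.12. The part of these cell types in the differences of the 10 genes was not tested.

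In SIT 6 of 11 choroid plexus genes and 4 of 5 red cell genes were lower with ELE, where 2.11% of all genes were lower and 1.54% higher, with medians of -0.87 and -1.60, 1 fibroblast marker was lower (Col3a1, -3.73 ± 1.5) and 1 higher (Cemip, 0.42 ± 0.16), 1 of 8 excitatory neuron markers was higher (Prox1, 0.46 ± 0.17), and no endothelial, mural, microglial, astrocyte or oligodendrocyte marker was called. On the left, where 0.963% of all genes were called lower, 1 of 15 fibroblast markers was called, Col6a1 at -0.72 ± 0.26, and no marker of the 8 further cell types. In sedentary mice 3 of 12 endothelial markers were lower on the left than on the right, as were 2 of 4 red cell genes (0.911% of all genes). The endothelial sum on the right was 47.7 CPM in TG7.3.3 and 7.38 and 9.71 CPM in the other sedentary mice, against 7.02 to 11.2 CPM on the left. In ELE mice 4 of 9 choroid plexus markers were higher on the left (0.853% of all genes), with a median of 3.11. Among the left ELE libraries the choroid plexus sum was 1062 CPM in TG7.3.2 and 27.4 and 59.6 CPM in the other 2, against 19.04 to 47.1 CPM on the right, so the high level lay in a single mouse.

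Across libraries the 10 genes did not vary as one group. Over the 20 libraries, which share the protocol groups and the same scaling, the 45 pairs had a median Spearman correlation of 0.33, from -0.52 to 0.91, and 30 were above 0. After the group means were taken out the median was 0.34. Without the 2 libraries farthest from the median of the members' mean level, again NT7.2.3 and NT7.2.4, it was 0.19, and without the 3 left-out SIT libraries 0.16, so the positive median leaned on those libraries. Pearson's median was 0.40 over all libraries and 0.16 without the 3.

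**Figure D3:**
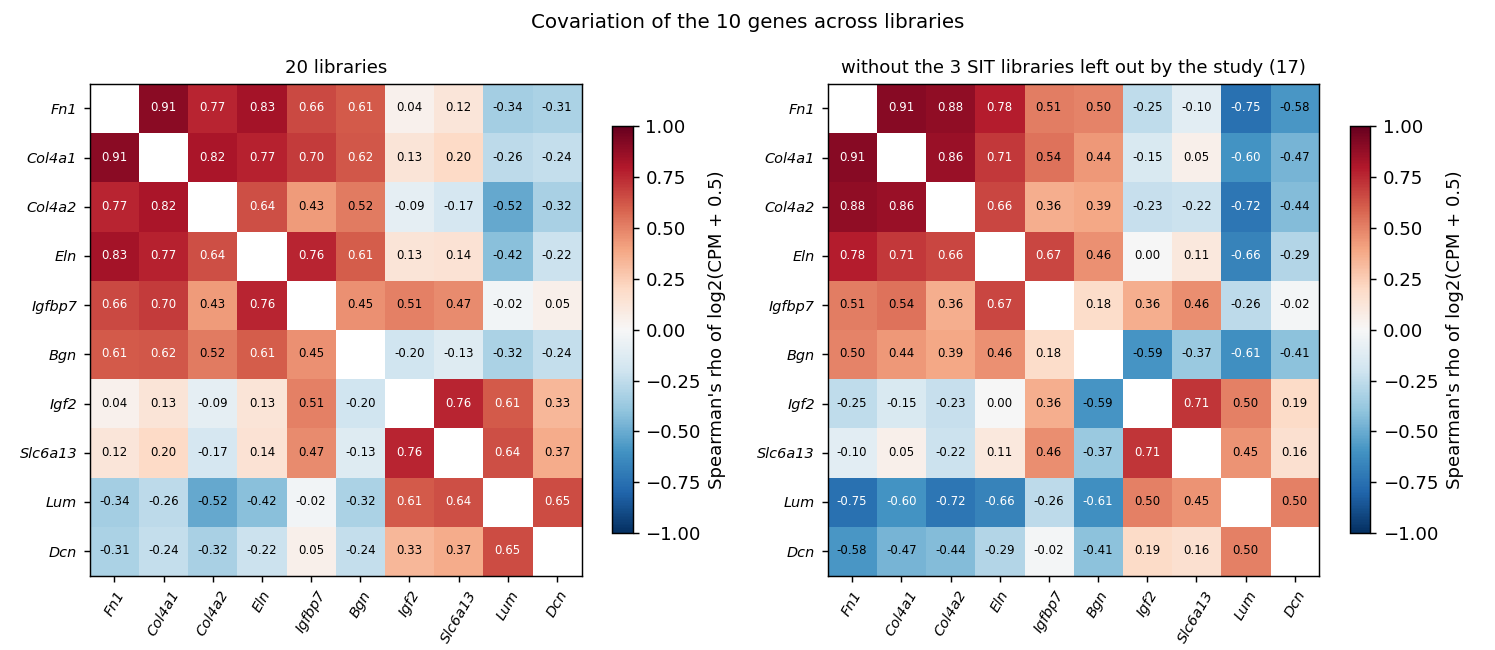
Spearman correlation of log2(CPM + 0.5) between each pair of the 10 genes, over the 20 libraries in the first panel and over 17 in the second, red above 0 and blue below. Over 20 libraries, pairs among Fn1, Col4a1, Col4a2, Eln, Igfbp7 and Bgn ranged from 0.43 to 0.91, and pairs between these 6 genes and Igf2, Slc6a13, Lum and Dcn had a median of -0.15.

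After seeing the values the genes were split into 6 that correlated positively with each other, Fn1, Col4a1, Col4a2, Eln, Igfbp7 and Bgn, and 4 that did likewise, Igf2, Slc6a13, Lum and Dcn. The 15 pairs of the first set had correlations of 0.43 to 0.91 over 20 libraries and 0.18 to 0.91 over 17. The closest pairs were Fn1 with Col4a1 at 0.91, Fn1 with Eln at 0.83 and the collagen chains with each other at 0.82. The 6 pairs of the second set ran from 0.33 to 0.76, led by Igf2 with Slc6a13, and from 0.16 to 0.71 over 17 libraries. The 24 pairs between the sets had a median of -0.15, and of -0.28 over 17 libraries, but of 0.09 with 15 of 24 above 0 once the group means were taken out, so their negative median did not hold within groups. Dcn, the most abundant member per kilobase, was near 0 against the mean of the other members (Pearson 0.05), and at -0.34 without NT7.2.3 and NT7.2.4.

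Each gene was also set against the summed levels of the lists. Over the 17 libraries the Pearson correlation with the mural cell sum was 0.82 for Col4a1 and 0.72 for Fn1, that of Col4a2 with the basement membrane sum was 0.83, and that of Eln with the elastic fibre assembly sum was 0.80. Igfbp7 correlated with the fibroblast sum at 0.72. For each of these genes the value given is its highest over the lists, so the pairs are selected. Other lists came close, with Eln at 0.80 with the fibronectin receptor sum and Col4a1 at 0.70 with the basement membrane sum. Bgn was highest with the astrocyte sum, at 0.87. No link between a gene and a cell type is read from these values. Dcn and Lum stood at 0.32 and 0.61 with the fibroblast sum over 20 libraries and at -0.08 and -0.44 over 17. By median level that sum was led by Cemip (21.4 CPM), Fbln1 (11.9 CPM) and Islr (11.4 CPM), so it is a mixed measure and does not settle whether Dcn and Lum mark meningeal cells here. Slc6a13 correlated with it at 0.87 over 20 libraries and at 0.20 over 17.

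**Figure D4:**
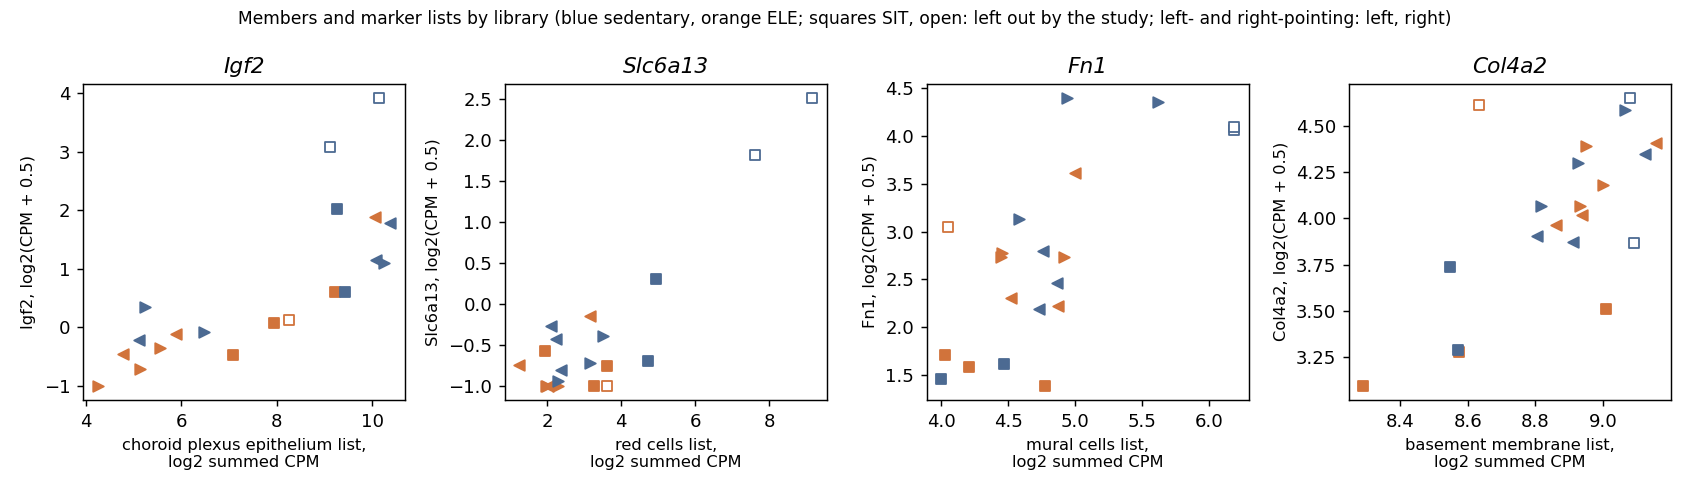
Level of 4 genes on the log2(CPM + 0.5) scale against the log2 summed CPM of a marker list, 1 point per library, for Igf2 with choroid plexus, Slc6a13 with red cells, Fn1 with mural cells and Col4a2 with basement membrane genes. Squares are SIT libraries (open where left out), triangles point to the hemisphere of separate libraries, and the Pearson correlations over all 20 were 0.77, 0.89, 0.71 and 0.67. NT7.2.3 and NT7.2.4 had both the highest Slc6a13 levels (3.01 and 5.20 CPM) and the highest red cell sums (197.9 and 569.9 CPM). The Slc6a13 value without these libraries is not given. The pairs shown are selected, and over all 20 Slc6a13 stood at 0.90 with the microglial sum and Igf2 at 0.82 with the red cell sum.

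The genes most like the members' mean level over the 20 libraries were Col1a1 with a Pearson correlation of 0.91, Pcdh18 (0.91), Wsb1 (0.89), Reln (0.89), Myo9b (0.89), Myo16 (0.88), Stab1 (0.88), Snrnp70 (0.88), Trank1 (0.88) and Csf1r (0.87). All 10 had their highest level in NT7.2.3 or NT7.2.4, and 12% of 19925 genes had a correlation above 0.5. Without the 2 farthest libraries Col1a1 stood at 0.73 and Myo9b at 0.81.

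The isolation protocols were compared with the 5 SIT libraries against the 12 separate ones. This contrast is not named in the choice of the genes but rests on the same library levels, so it too is given as a description. Fn1 ranged from 2.12 to 2.78 CPM in SIT and from 4.06 to 20.6 CPM in separate libraries, a difference of -1.70 ± 0.37. Col4a2 ranged from 8.03 to 12.8 CPM against 14.2 to 23.5 CPM (-0.82 ± 0.13). Neither gene overlapped between the protocols. The share of all genes without overlap was not counted for this contrast, so nothing is read from it. Col4a1 ranged from 4.75 to 6.99 CPM against 6.96 to 18.2 CPM, which met at the edge (-0.83 ± 0.20).

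Lum was 1.27 ± 0.47 higher in SIT, at 0.711 to 1.10 CPM against 0 to 0.763 CPM, and Eln differed by -0.99 ± 0.40, both with overlap. The differences were 0.52 ± 0.28 for Dcn, 0.68 ± 0.99 for Slc6a13, 0.26 ± 0.73 for Igf2, -0.37 ± 0.22 for Igfbp7 and -0.38 ± 0.28 for Bgn. Of the 10 genes 3 (Fn1, Col4a1 and Col4a2) had an adjusted p under 0.05 in edgeR's quasi-likelihood test, against 25.5% of 18843 genes (13.4% lower and 12.1% higher), so the share among the 10 was near that of all genes. By the call used above, without adjustment, 5 of 10 were called, 4 lower and 1 higher (14.4% of all genes, 9.52% lower and 4.89% higher).

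**Figure D5:**
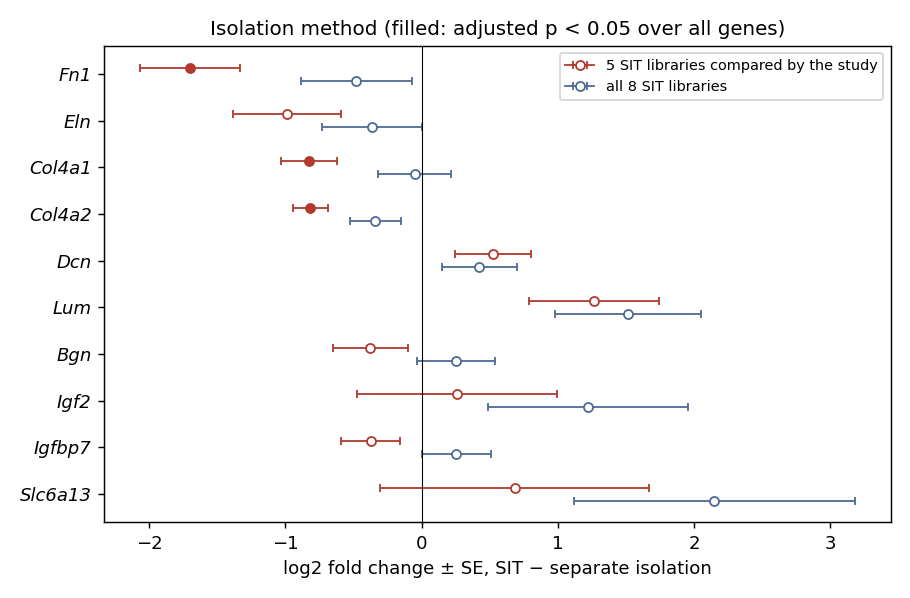
Log2 fold change (SIT minus separate isolation) with its standard error for each gene, in red for the 5 compared SIT libraries and in blue for all 8, filled where the adjusted p was under 0.05. Fn1 moved from -1.70 to -0.48 and Col4a1 from -0.83 to -0.05 once all 8 entered.

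These differences depended on which SIT libraries entered. The 3 left-out libraries had 7.77 to 16.6 CPM of Fn1, 13.97 to 23.6 CPM of Col4a1 and 14.1 to 24.7 CPM of Col4a2, inside or near the ranges of the separate libraries. With all 8 SIT libraries 0 of 10 genes had an adjusted p under 0.05 in the edgeR test and 2, Lum and Slc6a13, were called by the unadjusted rule, with Fn1 at -0.48 ± 0.41, Col4a1 at -0.05 ± 0.27 and Col4a2 at -0.34 ± 0.19. SIT libraries hold both hippocampi of a mouse and separate libraries 1, and the mice are different, so protocol and amount of tissue cannot be told apart.

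Of 17 basement membrane genes outside the 10, 6 had an adjusted p under 0.05 between the protocols and all 6 were lower in SIT, where 13.4% of all genes were lower at that threshold, and no test of the list was run. The laminin chain Lamb2 was -0.91 ± 0.10 (adjusted p = 1.43e-06, edgeR), the heparan sulfate proteoglycan Agrn -0.75 ± 0.09, and the laminin chains Lamc1 and Lamb1 -0.50 ± 0.09 and -0.46 ± 0.11. Against the same 13.4%, lower genes numbered 3 of 7 among fibronectin receptors, 2 of 12 in elastic fibre assembly, 3 of 18 fibroblast, 2 of 10 mural cell and 1 of 12 endothelial markers, 2 of 9 in the insulin-like growth factor system and 5 of 7 astrocyte markers. Red cell genes were higher in 4 of 5 (median 1.45), where 12.1% of all genes were higher. Of 8 excitatory neuron markers 3 were higher and 2 lower, of 8 microglial markers 1 was higher and 1 lower, 1 of 5 oligodendrocyte markers was higher, and no choroid plexus (of 11) or further proteoglycan gene (of 5) passed.

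With all 8 SIT libraries 4 of 17 basement membrane genes were lower at that threshold, beside 10.5% of all genes, and 0 of 7 fibronectin receptors, 1 of 11 elastic fibre assembly genes, 2 of 10 mural cell markers and 0 of 12 endothelial markers. Fibroblast markers then had 1 of 18 lower and 2 higher, with a list median of 0.78 in place of -0.30. Microglial markers were higher in 7 of 8 (median 3.42) and red cell genes in 5 of 5 (median 3.22), beside 9.05% of all genes, as were 3 of 5 oligodendrocyte markers, 2 of 5 further proteoglycans and 1 of 9 genes of the insulin-like growth factor system. Astrocyte markers were lower in 6 of 7, excitatory neuron markers were lower in 2 and higher in 1 of 8, and no choroid plexus gene (of 11) passed.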

How the data were processed

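RNA bound to tagged ribosomes was sequenced from 20 libraries, each from 1 Emx1-NuTRAP mouse. The authors deposited raw counts of read pairs per gene, made with strand taken into account after duplicates were removed. Per the submitters' processing notes the tools included STAR 2.7.3a, Picard 1.87, FastQC 0.11.9, R 4.1.0 and DESeq2 1.32.0. Identifiers were matched to GENCODE for GRCm38, and 55154 of 55335 had a symbol. The 24 columns of wild-type libraries in another deposited table carry names that match no label and were not used, and neither were the fold changes and p-values in the deposited gene lists. Those lists' normalized values served only to find which SIT libraries had been compared, with 1 of 24 subsets matching 336 of 336 listed genes and the next best matching 4.

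Counts were fitted with edgeR 4.0.16 (filterByExpr, TMM scaling, quasi-likelihood test, Benjamini-Hochberg over all genes) in R 4.3.3, with DESeq2 1.42.0 as an alternative. A gene was called at an unadjusted p under 0.05 and a log2 fold change beyond 0.3875. The standard error is the absolute log2 fold change over the square root of F. CPM values use TMM scaling over the 20 libraries, and correlations use log2(CPM + 0.5). In the fits across all genes, p-values measure the spread between mice. Each hemisphere, SIT, and the isolation protocols were fitted on their own libraries. Floors and folds at 0 counts use 3 counts.

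The 10 genes, the 14 lists and the tests were chosen with earlier results of these data known. The genes named from a list are its called genes, at most the 4 with the lowest p, beside the 10 followed genes. Alternatives left out each mouse, changed the scaling, the test and the low-count filter, and blocked on the first part of the mouse number. The block in separate libraries and the Slc6a13 bound without each sedentary mouse were chosen after seeing the data. The fitting step was tested on simulated counts with known changes.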

Additional observations from a re-analysis of the deposited data

Results flagged for a closer look

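In the ELE group of SIT, the library of mouse NT6.304 stood far from the other 3 for 3 of the 10 genes. The gap to the nearest library was 0.883 of the group's range for Fn1 (7.77 CPM against 2.12 to 2.78 CPM), 0.961 for Eln (8.55 CPM against 2.13 to 2.39 CPM) and 0.851 for Igfbp7 (6.64 CPM against 1.62 to 2.37 CPM). The 95% critical value for 4 samples was passed in 3 of 20 gene and group combinations examined. Chance would flag about 1 in 20 if the combinations were independent. They are not, since the 3 flags share a library and the 3 genes correlate with each other (Spearman 0.66 to 0.83 over the 20 libraries). The genes were also chosen by these levels, so no excess over chance is read. The same library had the lowest Dcn level of the SIT libraries (10.1 CPM) and no Lum count. It is one of the 3 libraries left out of the SIT comparison. The cause was not tested.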

How the results depend on the processing

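Single libraries decided several counts. Leaving out 1 library at a time, the number of followed genes called ranged from 3 to 5 on the right, 0 to 3 on the left, 0 to 2 in SIT, 2 to 5 between hemispheres of sedentary mice, 1 to 3 between those of ELE mice, 3 to 5 for the difference between hemispheres, 0 to 4 with hemispheres combined, 4 to 6 between protocols and 3 to 4 between protocols at an adjusted p under 0.05 (edgeR). On the right it was 3 without TG9.1.1, in SIT 0 without NT6.303 or NT6.305 and 2 without NT6.306 or TG7.4.2, and on the left 3 without TG7.3.2 and 1 without TG9.2.2.

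In SIT, mice numbered NT6 alone gave 3 genes (Igf2, Bgn and Col4a1), and the replicate block on the first part of the mouse number with all 8 libraries gave 4, with Fn1 at 1.15, Bgn at 1.29 and Col4a1 at 1.05 higher in ELE. The other numbers in SIT are all ELE or all sedentary, so the block too compares only the 4 mice numbered NT6, NT6.304 among them. On the left DESeq2 gave 1 gene (Bgn) and no filter on low counts 1 (Eln). Between hemispheres of ELE mice no filter gave 4. With hemispheres combined DESeq2, no filter and the replicate block each gave 2. Between protocols all 8 SIT libraries gave 2 called (Lum and Slc6a13) and 0 at an adjusted p under 0.05. DESeq2 size factors in edgeR gave every count within 1.5 times its value. No value that was called in the comparisons as reported changed sign.

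Values that were not called in the comparisons as reported changed sign when 1 library was left out, and their lowest and highest log2 differences follow. In SIT these were Fn1 -0.056 to 0.14, Eln -1.14 to 0.32, Lum -0.18 to 0.34, Col4a1 -0.043 to 0.31 and Col4a2 -0.46 to 0.017. On the right these were Dcn -0.98 to 0.36, Bgn -0.56 to 0.38 and Col4a2 -0.24 to 0.028. On the left these were Fn1 -0.27 to 0.64, Igfbp7 -0.076 to 0.24, Igf2 -2.37 to 0.29, Dcn -0.12 to 0.38, Lum -0.75 to 0.25, Slc6a13 -2.16 to 0.22, Col4a1 -0.37 to 0.26 and Col4a2 -0.075 to 0.26. Between hemispheres of sedentary mice these were Dcn -0.23 to 0.36 and Lum -0.21 to 0.58. Between hemispheres of ELE mice these were Fn1 -0.53 to 0.38, Eln -0.21 to 1.35, Dcn -0.16 to 1.18, Bgn -0.65 to 0.49, Col4a1 -0.31 to 0.31 and Col4a2 -0.24 to 0.015. For the difference between hemispheres these were Dcn -0.23 to 1.11 and Lum -0.13 to 0.95. With hemispheres combined these were Eln -0.50 to 0.42, Dcn -0.34 to 0.24, Bgn -0.0087 to 0.53 and Col4a2 -0.10 to 0.063. Between protocols these were Igf2 -0.28 to 1.19 and Slc6a13 -0.11 to 1.70.

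Some uncalled values also changed sign under other settings. With all 8 SIT libraries the SIT differences were -1.29 for Fn1, -1.32 for Lum, -0.10 for Bgn and -0.54 for Col4a1, and the protocol differences 0.25 for Igfbp7 and 0.25 for Bgn. NT6 mice alone gave 0.66 for Eln, 0.63 for Igfbp7, -1.05 for Lum and 0.59 for Col4a2, and the replicate block there 0.68, 0.65, -1.04 and 0.61. In separate libraries the block gave -0.00512 for Col4a1 on the left, -0.052 for Fn1 between hemispheres of ELE mice and -0.049 for Dcn with hemispheres combined.

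Whether the mouse numbers pair the libraries was not settled. Among separate libraries 18 pairs of the same first part correlated at -0.10 to 0.56 (median 0.025), with 6 above 0.1. The 36 pairs of different first parts correlated at -0.38 to 0.30 (median 0.002), with 5 above 0.1. In SIT the 4 pairs of the same first part ran from -0.13 to 0.04. The block otherwise lost 2 calls, Bgn between hemispheres of sedentary mice and Slc6a13 for the difference between hemispheres. A block on the labels' replicate numbers was not run, because the columns carry none. Depth limits Slc6a13, Lum and Igf2, which held few counts in several libraries.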
